A study of Mus musculus with 10 samples.

Results

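*Mmd2*, *Dhrs9* and *Slc25a42* are 3 of the 46983 genes counted in mammary gland RNA of C57BL/6 mice, and all 3 were among the 15610 genes expressed highly enough to be tested. They were selected by name because earlier results of these libraries had placed them higher after a high folic acid (FA) intake than after the control intake. The difference between the diets is therefore given for them as a description, without a test. The values below show how the 3 genes varied from mouse to mouse, whether they went with fat and thermogenic genes, and what their closest relatives did.

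The libraries came from adult virgin females, 5 that had been fed a control diet (CFA, 1 mg FA/kg) and 5 that had been fed a high folic acid diet (HFA, 5 mg FA/kg). Both groups ate their diet for 4 weeks and then the same AIN93M maintenance diet for a further 4 weeks, so RNA of the right thoracic gland was taken at postnatal day 130, when neither group was still on its test diet. The mice carried no genetic alteration, and each library is 1 mouse and is called by its title. The CFA libraries were T1224, T1234, T1314, T1324 and T1334, and the HFA libraries were T2214, T2224, T2234, T2314 and T2334. Between 7672199 and 14829291 reads per library fell on genes. Levels are CPM, reads of a gene per 1e6 reads on genes after the libraries were scaled by TMM (trimmed mean of M values). A log2 fold change is the HFA level relative to the CFA level.

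The whole gland was used, so epithelium, fat, muscle of the body wall and lymph node tissue can all contribute RNA, and fewer cells of a type cannot be told apart from less RNA per cell. The markers of fat cells were abundant in all 10 libraries, at a mean of 10.3 to 10.9 log2 CPM over 21 genes in CFA and 9.89 to 10.96 in HFA. B and T cell markers were high in 3 libraries, T1234, T1334 and T2334, where the summed level of the 14 tested markers was 461, 1143 and 3171 CPM against 12.9 to 23.4 CPM in the other 7. None of all 20 markers was at 0 in any library. T2334 stood apart from the rest, with a median correlation of 0.798 with the other libraries against 0.918 to 0.970 for each of the others. It also had the lowest skeletal muscle level, 6.23 log2 CPM over 10 genes, whereas the other HFA libraries had 12.1 to 12.4 and the CFA libraries 9.44 to 11.996. Values without T2334, and within the 7 libraries of low B and T cell level, are given below beside the results.

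The 3 genes act in different compartments of the cell. *Mmd2* (also PAQR10) encodes a membrane protein of the Golgi apparatus in the progestin and adipoQ receptor (PAQR) family, to which the adiponectin receptors also belong. *Dhrs9* encodes a short-chain dehydrogenase/reductase that oxidises retinol to retinaldehyde, a step towards retinoic acid, and also oxidises hydroxysteroids. *Slc25a42* encodes a carrier of the mitochondrial inner membrane that brings coenzyme A (CoA) into the matrix in exchange for adenine nucleotides. In fat, adiponectin (*Adipoq*) is a secreted hormone of mature fat cells, and uncoupling protein 1 (*Ucp1*) releases the proton gradient of mitochondria as heat in brown and beige fat cells.

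In GRCm38, *Mmd2* (ENSMUSG00000039533) lies on chromosome 5 from 142562358 to 142608800 on the minus strand, with 3 annotated transcripts and 7 exons in the longest coding one. *Dhrs9* (ENSMUSG00000027068) lies on chromosome 2 from 69380445 to 69404533 on the plus strand, with 1 transcript of 5 exons. *Slc25a42* (ENSMUSG00000002346) lies on chromosome 8 from 70184340 to 70212305 on the minus strand, with 5 transcripts and 8 exons in the longest coding one. No other annotated gene overlapped an exon of any of them, which matters because the library kit does not keep the strand. Of the stretches of 75 bases, the length of a read, that their transcripts hold, 0 of 5117 for *Mmd2*, 0 of 4207 for *Dhrs9* and 17 of 6061 for *Slc25a42* also occurred in transcripts of other genes. Reads identical to another annotated transcript could thus touch few positions of these genes. Near matches and copies outside annotated transcripts were not searched.

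The promoters of the 3 genes are shown because the genes were higher after the same diet, and they differ in composition. Each window runs from 250 bases before to 50 after the transcription start, 5′ to 3′ on the strand of the gene (RefSeq, GRCm38.p6), and capitals mark matches on either strand to the core of the TATA box (TATAAA), the CCAAT box (CCAAT), the core of the GC box (GGGCGG) and a half-site of nuclear receptors (TGACCT).

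Mmd2, chr5:142608703-142609002, minus strand: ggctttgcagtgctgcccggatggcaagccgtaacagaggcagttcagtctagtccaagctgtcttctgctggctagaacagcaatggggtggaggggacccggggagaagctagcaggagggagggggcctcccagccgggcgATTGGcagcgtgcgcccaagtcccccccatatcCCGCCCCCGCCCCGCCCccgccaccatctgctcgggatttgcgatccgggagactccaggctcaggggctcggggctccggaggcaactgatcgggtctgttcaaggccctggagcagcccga

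Dhrs9, chr2:69380212-69380511, plus strand: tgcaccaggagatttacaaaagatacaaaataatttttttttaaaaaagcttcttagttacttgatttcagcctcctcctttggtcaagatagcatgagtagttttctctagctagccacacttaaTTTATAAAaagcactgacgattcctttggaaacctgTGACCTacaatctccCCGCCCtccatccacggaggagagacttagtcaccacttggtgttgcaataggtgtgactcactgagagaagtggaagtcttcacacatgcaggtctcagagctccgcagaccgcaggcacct

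Slc25a42, chr8:70212232-70212531, minus strand: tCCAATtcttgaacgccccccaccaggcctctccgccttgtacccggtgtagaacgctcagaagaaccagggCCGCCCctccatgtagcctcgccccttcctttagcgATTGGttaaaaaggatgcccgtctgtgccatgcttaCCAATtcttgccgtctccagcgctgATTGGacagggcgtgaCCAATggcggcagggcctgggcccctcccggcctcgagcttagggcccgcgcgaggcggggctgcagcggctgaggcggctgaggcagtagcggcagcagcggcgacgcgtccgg

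The *Mmd2* window holds 18 CpG dinucleotides and 67% G and C, and the *Slc25a42* window holds 26 CpG and 65.7% G and C. The *Dhrs9* window is poorer in both, with 5 CpG and 43.7% G and C, against a median of 7 CpG and 52.7% over 32851 promoter windows of the same length. TATAAA was found only in the *Dhrs9* window, where 2 matches on opposite strands overlap, and 13.6% of all windows hold it. CCAAT was found in the *Mmd2* window (1 match) and 5 times in the *Slc25a42* window, and 37.4% of all windows hold at least 1 match while 0.271% hold 5 or more. GGGCGG was found in all 3 windows, with 3 matches for *Mmd2*, the last pair sharing a base, and 1 each for *Dhrs9* and *Slc25a42*. It occurs in 35.7% of all windows, and 3 or more matches occur in 10.7%. TGACCT, which reads AGGTCA on the other strand, was found once, in the *Dhrs9* window, and 16.3% of all windows hold it. The E-box core (CACGTG) and the cyclic AMP response element (TGACGTCA) were in none of the 3 windows, and they occur in 7.15% and 1.79% of all windows. A direct repeat of the nuclear receptor half-site with a spacer of 1 base was also in none of the 3, and 0.0396% of all windows hold it. Of the motifs searched, GGGCGG alone was in all 3 windows.

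*Mmd2* was low in every CFA mouse and spread widely among the HFA mice. Its level was 3.71 CPM in T1224, 4.83 in T1234, 3.45 in T1314, 4.91 in T1324 and 6.64 in T1334, all on the CFA diet. On the HFA diet it was 68.6 CPM in T2214, 33.5 in T2224, 5.53 in T2234, 17.1 in T2314 and 57.4 in T2334. The HFA library T2234 lay inside the CFA range, and the other 4 HFA libraries lay above every CFA library. The highest HFA library was 12.4-fold above the lowest, whereas the CFA libraries spanned 1.93-fold. The CFA mean was 4.71 ± 1.26 CPM and the HFA mean 36.4 ± 26.5 CPM (± SD, each n = 5), a ratio of 7.74 and a log2 fold change of 2.95 (SE 0.58). The HFA level of T2234 rested on 39 reads, and its 95% counting interval of 3.94 to 7.57 CPM did not reach the interval of any other HFA library, the nearest being 14.7 to 19.7 CPM in T2314.

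*Dhrs9* was the least expressed of the 3 genes and had no overlap between the groups. It was at 1.51 CPM in T1224, 1.32 in T1234, 2.08 in T1314, 1.30 in T1324 and 2.39 in T1334. In the HFA libraries it was at 2.77 CPM in T2214, 7.16 in T2224, 9.65 in T2234, 3.93 in T2314 and 6.11 in T2334. The lowest HFA library, T2214, was thus just above the highest CFA library, T1334, and the other 4 HFA libraries were further away. The CFA mean was 1.72 ± 0.490 CPM and the HFA mean 5.92 ± 2.71 CPM (± SD, each n = 5), a ratio of 3.45 and a log2 fold change of 1.77 (SE 0.35). These levels rested on 12 to 32 reads per CFA library and 25 to 96 per HFA library. The 95% exact Poisson interval of T1334 ran from 1.63 to 3.37 CPM and that of T2214 from 1.79 to 4.09 CPM, so the order of these neighbouring libraries was not resolved at this depth. Such intervals cover counting error only, since the reads carry no molecular identifiers.

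*Slc25a42* showed the smallest ratio between the diets and the most even HFA values. The CFA libraries had 34.95 CPM in T1224, 25.9 in T1234, 27.6 in T1314, 42.5 in T1324 and 50.2 in T1334. The HFA libraries had 62.7 CPM in T2214, 69.5 in T2224, 80.9 in T2234, 105 in T2314 and 64.1 in T2334. All HFA libraries were above all CFA libraries, and the counting intervals of the nearest pair, 46.5 to 54.2 CPM for T1334 and 57.6 to 68.0 CPM for T2214, did not meet. The CFA mean was 36.2 ± 10.2 CPM and the HFA mean 76.5 ± 17.6 CPM (± SD, each n = 5), a ratio of 2.11 and a log2 fold change of 1.08 (SE 0.22). The spread was 1.94-fold among the CFA and 1.68-fold among the HFA libraries.

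**Figure D1:**
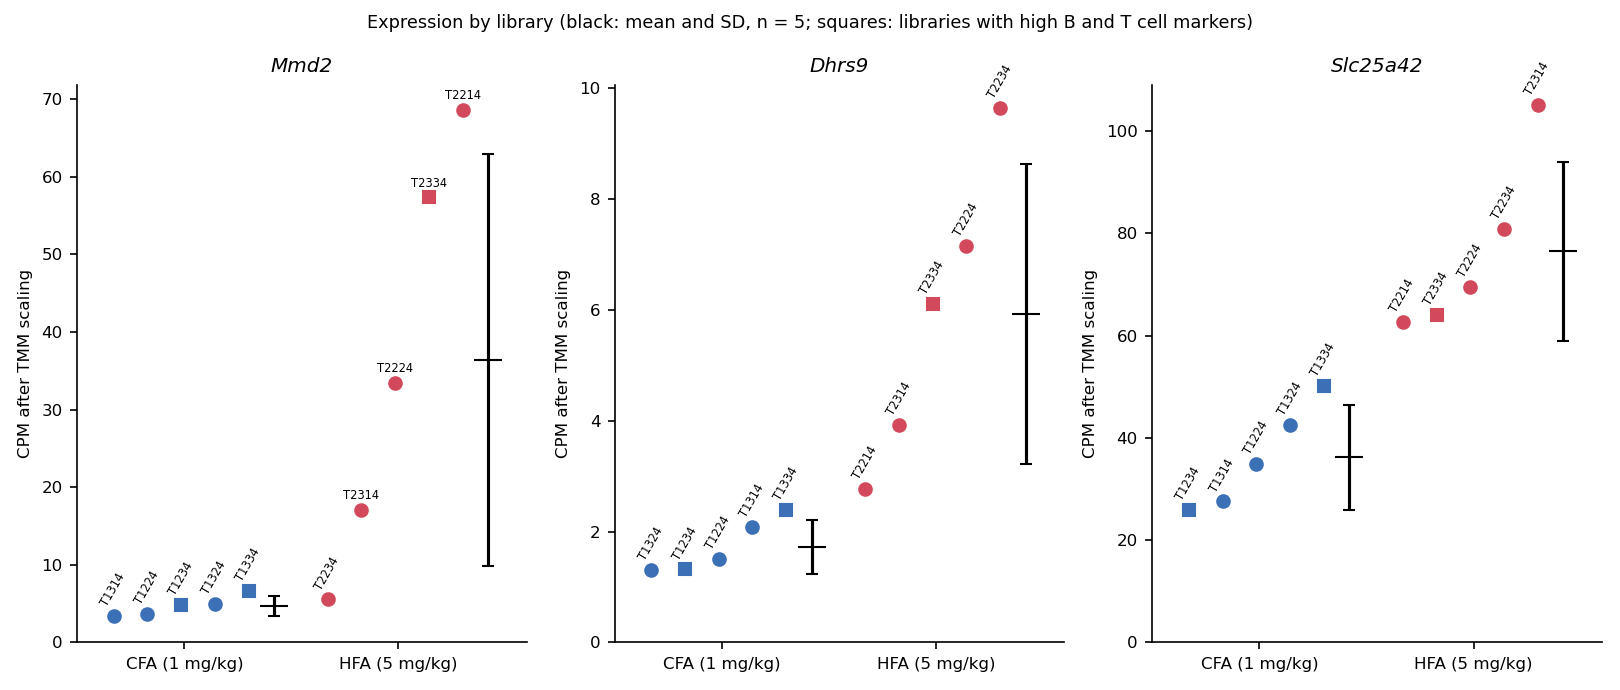
CPM after TMM scaling of *Mmd2*, *Dhrs9* and *Slc25a42* (vertical axes, each from 0) in the 5 CFA libraries (blue) and 5 HFA libraries (red), ordered by value within a group and labelled by title, with the mean and SD in black and squares for the 3 libraries of high B and T cell level. *Mmd2* reached from 5.53 to 68.6 CPM in HFA and overlapped CFA through T2234, whereas the groups of *Dhrs9* and *Slc25a42* did not overlap.

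Of the 3 genes, *Dhrs9* and *Slc25a42* had every HFA library above every CFA library, a pattern found in 0.75% of the 15610 genes tested (117 genes), while 0.243% showed the opposite. Nothing follows from this count, since the genes were selected for that contrast. All 3 had a log2 fold change above 1, as did 1.47% of the genes tested. With the quasi-likelihood test in edgeR 0 genes passed the adjusted threshold of 0.05, and 7.36% (1149 genes) had an unadjusted p below 0.05, 3.87% being higher in HFA. The median log2 fold change of all genes was 0.06. Per kilobase of exon, *Slc25a42* was the most abundant of the 3 on both diets, at 6.04 CPM per kb in CFA and 12.8 in HFA. *Mmd2* was at 0.906 CPM per kb in CFA and 7.02 in HFA, and *Dhrs9* was at 0.402 and 1.38.

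The HFA mice in which the 3 genes were highest were not the same. *Mmd2* was highest in T2214, the library in which *Dhrs9* and *Slc25a42* each had their lowest HFA value. *Dhrs9* was highest in T2234, the library in which *Mmd2* was lowest. *Slc25a42* was highest in T2314, where *Mmd2* and *Dhrs9* each had their next to lowest HFA value. Part of this order was not resolved by the counting intervals. That of *Slc25a42* in T2214, 57.6 to 68.0 CPM, overlapped 60.2 to 68.2 CPM in T2334. For *Dhrs9* the interval of T2214 overlapped that of T2314, and the interval of T2234 overlapped that of T2224. Among the CFA mice, T1334 had the highest value of all 3 genes, though its interval overlapped that of T1324 for *Mmd2* and of T1314 for *Dhrs9*. T1334 was also the CFA library with the most B and T cell RNA, the most *Ucp1* and the least *Adipoq*, and the part of these in its values was not tested.

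The second digit of the sample titles, whose meaning is not given in the sources used here, divided both diets and allowed the difference to be read within each class. Among libraries with the digit 2 (2 CFA, 3 HFA), the mean difference in log2 CPM was 2.43 for *Mmd2*, 1.92 for *Dhrs9* and 1.23 for *Slc25a42*. Among those with the digit 3 (3 CFA, 2 HFA), it was 2.66, 1.32 and 1.07. In both classes every HFA library was above every CFA library for each of the 3 genes, as for 23.7% of all genes tested with the digit 2 and 9.3% with the digit 3, so these small classes add little. For *Mmd2* with the digit 2 the nearest values, 4.83 CPM in T1234 and 5.53 CPM in T2234, had counting intervals that overlap, 3.51 to 6.48 and 3.94 to 7.57 CPM. The study's own model included the cage of each mouse, which is not in the labels and was not a term here.

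*Mmd2* and its nearest relative differed in direction. *Mmd* (PAQR11), the closest paralogue of *Mmd2*, was much more abundant, at a mean of 256 (CFA) and 166 (HFA) CPM per kb. Its level was 764, 697, 1104, 1037 and 981 CPM in the CFA libraries in the order given above and 770, 593, 691, 598 and 317 CPM in the HFA libraries. The groups overlapped, with means of 916 ± 177 and 594 ± 171 CPM and a log2 fold change of −0.63 (SE 0.25, unadjusted p = 0.0287, adjusted p = 0.655, quasi-likelihood test), which did not pass the adjusted threshold. Within the digit 3 the mean difference of *Mmd* was −1.26 in log2 CPM, against −0.0998 within the digit 2. The level of *Mmd* per kilobase was 209 to 465 times that of *Mmd2* in the CFA libraries. Unlike *Mmd2*, *Mmd* has exons that other annotated genes overlap, *Gm45716* and *Gm45883*. Reads there may be missing from its count, and the size of this was not tested. In the HFA libraries this ratio was 16.3 in T2214, 25.7 in T2224, 181 in T2234, 50.7 in T2314 and 8.01 in T2334, so *Mmd* remained the more abundant paralogue in each mouse.

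No other PAQR gene had a difference as large as that of *Mmd2*. Since *Mmd2* was selected for this contrast and its relatives were not, the gap is a description. All 11 genes of the family were tested, and the 10 others had a median log2 fold change of −0.076, with 0 higher and 1 lower (*Mmd*) at an unadjusted p below 0.05. The adiponectin receptor genes *Adipor2*, with CFA and HFA means of 847 ± 159 and 842 ± 173 CPM, and *Adipor1*, with 197 ± 35.3 and 247 ± 65.0 CPM, had log2 fold changes of −0.0082 (SE 0.20) and 0.33 (SE 0.21). Both differences were within the spread between mice.

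Around *Dhrs9*, 25 of 32 genes of retinoid handling were tested. The 24 others had a median log2 fold change of 0.11, against the 0.06 of all genes, and 0 of them passed the adjusted threshold. At an unadjusted p below 0.05, 2 of the 24 were higher and 2 were lower. The higher ones were *Dhrs4*, another dehydrogenase/reductase that acts on retinoids (log2 fold change 0.49, SE 0.19, unadjusted p = 0.0251), and the retinoid X receptor gene *Rxrb* (0.24, SE 0.11, unadjusted p = 0.0451). The lower ones were *Crabp2*, which encodes a cellular retinoic acid-binding protein (−1.24, SE 0.41, unadjusted p = 0.0129), and the retinol dehydrogenase gene *Rdh11* (−0.65, SE 0.25, unadjusted p = 0.0245). The most abundant genes of the list were *Rbp4*, the plasma retinol carrier (−0.40, SE 0.26), the receptor gene *Rxra* (0.34, SE 0.15) and *Aldh1a1*, which makes retinoic acid from retinaldehyde (0.63, SE 0.56).

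*Slc25a42* was read against the genes that make, move and break down CoA and against the other mitochondrial nucleotide and cofactor carriers. Of 19 genes in the CoA list 18 were tested, and the 17 others had a median log2 fold change of 0.18. The pantothenate kinase gene *Pank1*, whose product starts CoA synthesis, was at 1.23 (SE 0.54, unadjusted p = 0.0442) and *Enpp1*, which encodes an ectoenzyme that hydrolyses nucleotides, at −1.01 (SE 0.31, unadjusted p = 0.00861). Neither passed the adjusted threshold. The most abundant genes of the list, *Pank3*, *Nudt7* (a peroxisomal CoA diphosphatase) and *Coasy* (CoA synthase), were at −0.085, 0.14 and −0.14 with SE of 0.18, 0.21 and 0.24. Of the 15 carriers 13 were tested, and the 12 others had a median of 0.24 with 0 at an unadjusted p below 0.05 in either direction. The most abundant carriers were the adenine nucleotide translocators *Slc25a4* (0.66, SE 0.50) and *Slc25a5* (−0.034, SE 0.15) and the ATP-magnesium carrier *Slc25a23* (0.42, SE 0.20).

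*Slc25a16*, a related mitochondrial carrier also tied to CoA, is given beside it. Its CFA mean was 51.3 ± 5.73 CPM and its HFA mean 62.8 ± 20.3 CPM (± SD, each n = 5), with a log2 fold change of 0.29 (SE 0.20, unadjusted p = 0.165). The level of *Slc25a42* per kilobase was 0.635, 0.450, 0.396, 0.614 and 0.729 times that of *Slc25a16* in the CFA libraries. In the HFA libraries it was 0.894, 1.10, 1.04, 0.862 and 1.08 times that of *Slc25a16*, above every CFA library. This ratio carries the contrast for which *Slc25a42* was selected and is a description.

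**Figure D2:**
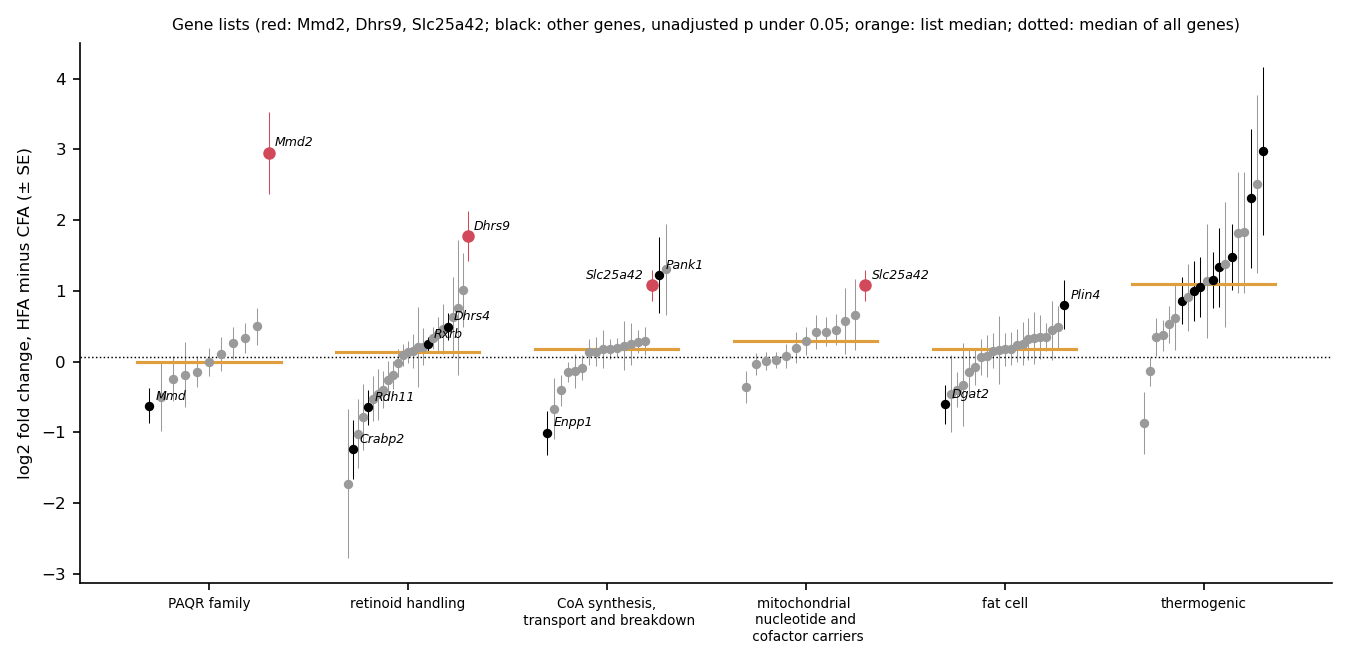
Log2 fold change, HFA minus CFA, with SE (vertical axis) of the tested genes of 6 lists (horizontal axis), ordered by value within a list. Red points are *Mmd2*, *Dhrs9* and *Slc25a42*, the last shown in both of its lists, black points are other genes with an unadjusted p below 0.05, orange bars are list medians and the dotted line is the median of all genes at 0.06. *Mmd2* stood at 2.95 with the rest of its family between −0.63 and 0.50, and the thermogenic list had a median of 1.10. The red genes were selected for this contrast and the others of their lists were not.

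The fat marker *Adipoq* did not separate the diets. It was at 1997, 1622, 1309, 1908 and 1108 CPM in the CFA libraries and at 1624, 1636, 1879, 2087 and 1081 CPM in the HFA libraries. The groups overlapped almost wholly, with means of 1589 ± 381 and 1661 ± 377 CPM and a log2 fold change of 0.06 (SE 0.25, adjusted p = 0.956, quasi-likelihood test). Of 21 fat cell genes, 1 was higher (*Plin4*, 0.80) and 1 lower (*Dgat2*, −0.60) at an unadjusted p below 0.05, and the median log2 fold change was 0.17. These genes, which encode a lipid droplet coat protein and an enzyme of triglyceride synthesis, were chosen for naming after their values were seen. The most abundant fat cell genes *Scd1*, *Fasn* and *Car3* were at −0.32, −0.45 and 0.44 with SE of 0.58, 0.54 and 0.41.

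Whether the 3 genes went with *Adipoq* among mice of the same diet was tested in a fit with diet and the log2 CPM of *Adipoq*, which the selection of the genes did not use. The slope, in log2 units of the gene per log2 unit of *Adipoq*, was −1.32 (SE 0.78, adjusted p = 0.290) for *Mmd2*, −0.49 (SE 0.53, adjusted p = 0.565) for *Dhrs9* and 0.17 (SE 0.32, adjusted p = 0.742) for *Slc25a42*. Of the 3 genes, 0 passed at an adjusted or an unadjusted p below 0.05, whereas 1.89% of 15609 genes rose and 5.96% fell with *Adipoq* past the adjusted threshold and 28.1% had an unadjusted p below 0.05. No gene passed without T2234, T2314 or T2334, or in a fit that held the title digit. All 14 tested B and T cell genes were among those that fell with *Adipoq*, and *Adipoq* was lowest in T2334 and T1334. Within the 7 libraries of low B and T cell level, *Slc25a42* had a slope of 1.09 (SE 0.32) on *Adipoq*, with an adjusted p of 0.994, and without T2334 the slope was −0.029 (SE 0.41).

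*Ucp1* spanned 196-fold among the CFA and 193-fold among the HFA mice, far more than any of the 3 genes. It was at 1.51, 72.7, 35.04, 121 and 297 CPM in the CFA libraries and at 218, 5.35, 785, 1031 and 955 CPM in the HFA libraries. In HFA 3 libraries lay above every CFA library, while T2224, at 5.35 CPM, lay below 4 of the 5 CFA libraries. The means were 105 ± 116 and 599 ± 460 CPM, and the log2 fold change of 2.51 (SE 1.26) had an unadjusted p of 0.0732 and an adjusted p of 0.681. Over the thermogenic list, 20 of 22 genes were tested and the median log2 fold change was 1.10. At an unadjusted p below 0.05, 8 of these genes were higher, as were 3.87% of all genes tested, and 0 were lower. The adjusted threshold was passed by 0 of them. The most abundant of them beside *Ucp1* were the beta-3 adrenergic receptor gene *Adrb3* (0.35, SE 0.26) and *Cox8b*, a respiratory chain subunit of brown fat and muscle (1.15, SE 0.39, unadjusted p = 0.0141).

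The order of the mice by *Ucp1* went only in part with their order by the 3 genes. Spearman's rho with *Ucp1* over the 10 libraries was 0.53 for *Mmd2*, 0.44 for *Dhrs9* and 0.64 for *Slc25a42*, into which the diet difference enters. With the diet means subtracted, Pearson's r of log2 CPM was −0.069, −0.0057 and 0.35. T2314 had the most of both *Ucp1* and *Slc25a42*. T2224, with the least *Ucp1* of the HFA libraries, had 33.5 CPM of *Mmd2*, 7.16 of *Dhrs9* and 69.5 of *Slc25a42*, each above every CFA library. The CFA library T1334, with more *Ucp1* than the HFA libraries T2214 and T2224, had less *Mmd2* and *Slc25a42* than either, while its *Dhrs9* could not be ordered against that of T2214. Within diets the slope on *Ucp1* was 0.023 (SE 0.11, adjusted p = 0.979) for *Mmd2*, 0.0051 (SE 0.063, adjusted p = 0.994) for *Dhrs9* and 0.045 (SE 0.037, adjusted p = 0.782) for *Slc25a42*. None of the 3 passed at an adjusted or an unadjusted p below 0.05, where 6.37% of 15609 genes had such an unadjusted p and 0.0128% rose past the adjusted threshold. The latter are 2 thermogenic genes, *Cidea* and *Slc27a2*, and 0 genes passed in a fit that held the title digit or without T1234, T1334 or T2224. With *Ucp1* as a covariate the log2 fold changes between the diets were 2.91 for *Mmd2*, 1.76 for *Dhrs9* and 0.97 for *Slc25a42*, and with *Adipoq* they were 2.91, 1.82 and 1.05. The genes were selected for the diet difference, so these values and the places of T2224 and T1334 are a description. The part of *Ucp1* or *Adipoq* in the difference was not tested beyond these values.

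**Figure D3:**
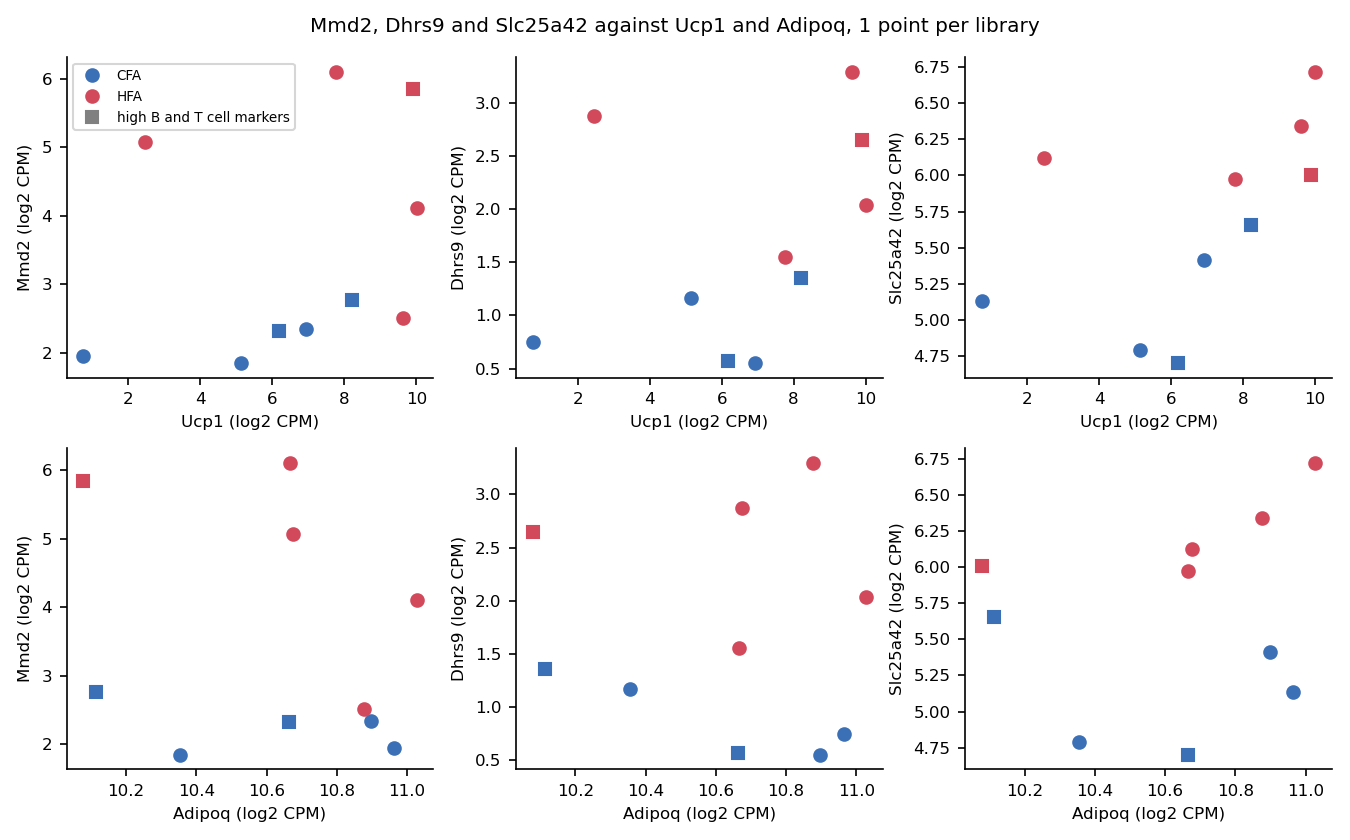
Log2 CPM of *Mmd2*, *Dhrs9* and *Slc25a42* (vertical axes) against log2 CPM of *Ucp1* (upper row) and *Adipoq* (lower row), 1 point per library, CFA in blue and HFA in red, with squares for the libraries of high B and T cell level. The red points of *Dhrs9* and *Slc25a42* lay above the blue points, and the red point of *Mmd2* among the blue ones is T2234. No CFA library had more than 297 CPM of *Ucp1*, while T2234, T2314 and T2334 had 785, 1031 and 955 CPM. That part of the *Ucp1* range holds no blue point.

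Other cell types differed between the libraries as well, and their values stand beside those of the 3 genes. The slopes on the mean B and T cell level within diets were 0.12 (SE 0.090, adjusted p = 0.332) for *Mmd2*, 0.031 (SE 0.063, adjusted p = 0.728) for *Dhrs9* and −0.0087 (SE 0.040, adjusted p = 0.884) for *Slc25a42*. By contrast 17.9% of the 15610 genes rose and 10.6% fell with that level (4460 genes, and 447 without T2334), and 42.7% had an unadjusted p below 0.05. Within the 3 CFA and 4 HFA libraries of low B and T cell level, the log2 fold changes were 2.96 (SE 0.73) for *Mmd2*, 1.83 (SE 0.45) for *Dhrs9* and 1.18 (SE 0.20) for *Slc25a42*. Without T2334 they were 2.69, 1.71 and 1.09. In these 7 libraries every HFA value was above every CFA value for each of the 3 genes, as for 9.77% of all genes tested. For *Mmd2* the nearest values, 4.91 CPM in T1324 and 5.53 CPM in T2234, had overlapping counting intervals of 3.82 to 6.23 and 3.94 to 7.57 CPM.

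Marker levels of the remaining cell types also lay differently in the diet groups, and 0 of their genes passed the adjusted threshold. The 10 muscle genes had a median log2 fold change of 0.70, and 4 HFA libraries were above all CFA libraries, at 12.1 to 12.4 against 9.44 to 11.996 log2 CPM. T2334, with 6.23, was far below them, and had 57.4 CPM of *Mmd2*, 6.11 of *Dhrs9* and 64.1 of *Slc25a42*. The 6 basal epithelial genes all had log2 fold changes below 0, with a median of −1.09 and a range of their mean level over libraries of 3.55 to 5.95 log2 CPM against 5.02 to 7.07 in CFA. Of the 7 Schwann cell genes 4 were higher at an unadjusted p below 0.05, as were 3.87% of all genes tested, with a median of 0.86. They were not uniform. The 3 most abundant, *Pmp22*, *Mbp* and *Sox10*, were at 0.043, 0.77 and −0.95 with SE of 0.31, 0.17 and 0.46. Fibroblast (−0.71), luminal epithelial (−0.47), skin keratinocyte (−0.38), macrophage (0.30) and endothelial genes (0.12) had the medians given in parentheses. With the muscle level as a covariate the log2 fold changes were 2.90 for *Mmd2*, 1.77 for *Dhrs9* and 1.08 for *Slc25a42*, and with the basal epithelial level they were 2.64, 1.65 and 0.95. The part of these cell types in the 3 genes was not tested beyond these values.

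**Figure D4:**
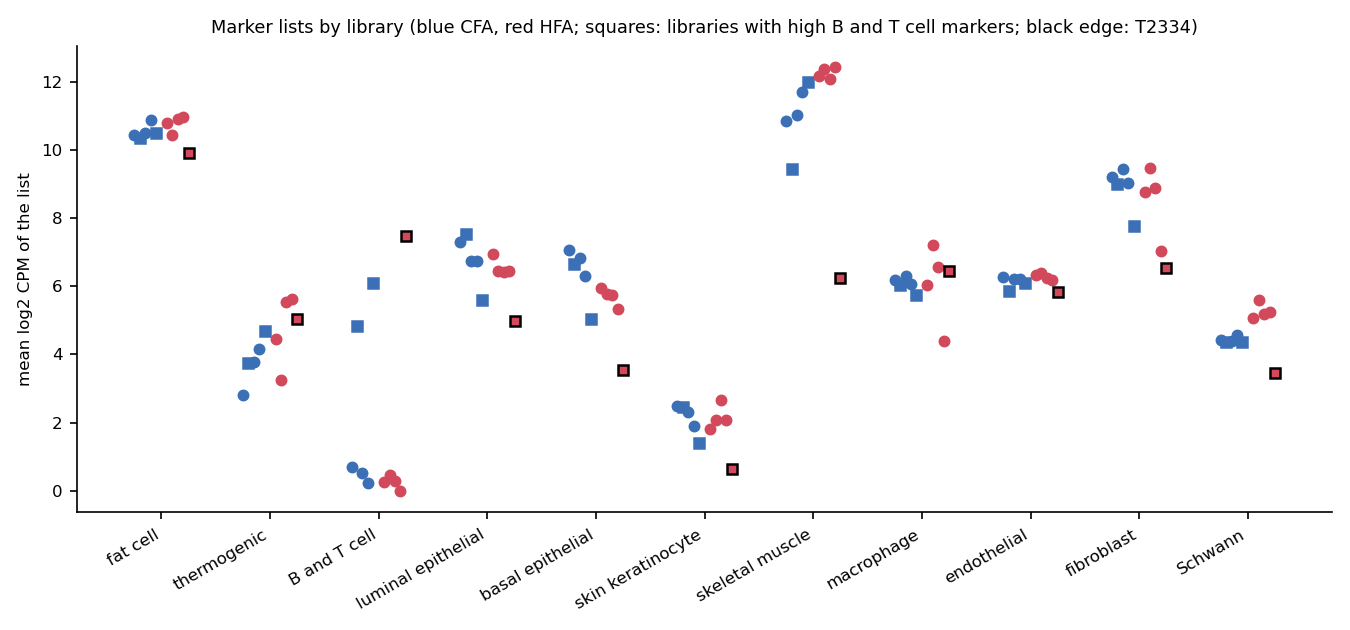
Mean log2 CPM over the genes of each marker list (vertical axis) in each library, CFA in blue and HFA in red, with squares for the 3 libraries of high B and T cell level and a black edge for T2334. B and T cell markers separated 3 libraries from the other 7, and T2334 had the lowest skeletal muscle level, 6.23 log2 CPM.

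The log2 fold changes of the 3 genes stayed above 0 however the counts were fitted. The genes were selected for this contrast in these same libraries, so their sign could hardly change and the ranges are a description. Over 16 other settings *Mmd2* lay between 2.29 and 3.02, *Dhrs9* between 1.54 and 1.83 and *Slc25a42* between 0.95 and 1.23. When any 1 library was omitted, *Mmd2* ran from 2.59 without T2214 to 3.23 without T2234, *Dhrs9* from 1.53 without T2234 to 1.95 without T2214, and *Slc25a42* from 0.93 without T1234 to 1.22 without T1334. The libraries that moved *Mmd2* and *Dhrs9* most were the same pair, in opposite directions.

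**Figure D5:**
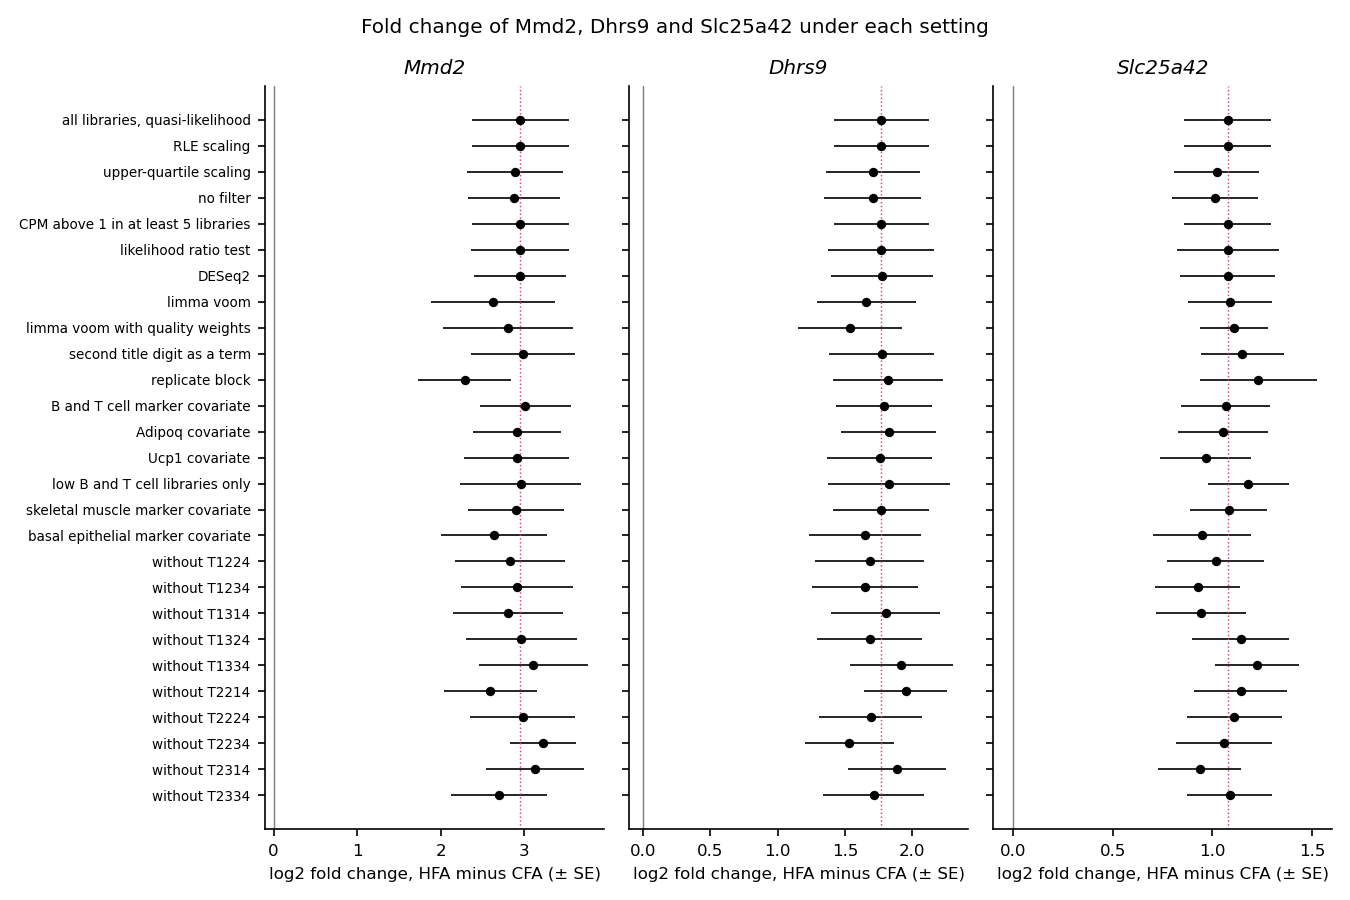
Log2 fold change, HFA minus CFA, with SE (horizontal axes) of *Mmd2*, *Dhrs9* and *Slc25a42* under the reported fit (top), 16 other settings and the omission of any 1 library (vertical axis), with 0 as a grey line and the reported value dotted. Every point was above 0, with the smallest values at 2.29, 1.53 and 0.93. The genes were selected for this contrast in the same libraries.

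The genes whose level over the 10 libraries was most like that of each gene were sought among 13949 genes by Pearson's r of log2 CPM, a measure into which the diet difference enters because the 3 genes were selected for it. For *Mmd2* they were *Tmem86a* (r = 0.945), *Dtx2* (0.906), *Tnk2* (0.903), *Hif1a* (0.892) and *Cnot8* (0.886). *Tmem86a* averaged 27.1 ± 6.36 CPM on the CFA and 63.0 ± 33.6 CPM on the HFA diet, and the hypoxia-inducible factor gene *Hif1a* had 84.0 ± 3.54 and 106 ± 27.0 CPM. For *Dhrs9* they were *Gdap10* (0.911), *Mia3* (0.901), *Cdkn1a* (0.890), *Rapgef2* (0.880) and *Flcn* (0.875). *Cdkn1a*, which encodes the cell cycle inhibitor p21, averaged 18.6 ± 3.55 and 37.4 ± 5.44 CPM. For *Slc25a42* they were *Vamp2* (0.976), *Araf* (0.968), *Flii* (0.965), *Acss1* (0.956) and *Dhrs11* (0.956). *Acss1*, a mitochondrial enzyme that makes acetyl-CoA from acetate and CoA, averaged 47.6 ± 12.8 and 106 ± 33.2 CPM. The 15 genes were all different, so no gene was among those most like more than 1 of the 3.

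With the mean of each diet subtracted, so that only differences among mice of the same diet counted, the genes most alike were others, apart from *Hif1a*. For *Mmd2* they were *Thap1* (r = 0.985), *1700052K11Rik* (0.965), *Hif1a* (0.934), *Gm11405* (0.915) and *Rraga* (0.913). For *Dhrs9* they were the heat shock protein gene *Hsph1* (0.925), *Slfn3* (0.921), *Gm37893* (0.877), *Ly96* (0.865) and *Odc1* (0.848), the last encoding ornithine decarboxylase. For *Slc25a42* they were the ubiquitin ligase gene *Stub1* (0.982), the mitochondrial ribosomal gene *Mrpl44* (0.956), *Zfp775* (0.950), *Atmin* (0.946) and *Arih2* (0.939). Without T2334, 28 of these 30 entries were still among the 50 genes most like the same gene, *Acss1* (r = 0.955) and *Dhrs11* (r = 0.957) being the exceptions. These are the highest of 13949 correlations over 10 libraries that share their depth and cell makeup, and they are given as a description. *Thap1*, *1700052K11Rik*, *Gm11405*, *Slfn3*, *Gm37893* and *Ly96* were low, with diet means between 2.28 and 4.26 CPM. *Mmd2* spanned 12.4-fold in HFA and 1.93-fold in CFA, so its correlations with diet means subtracted rest mostly on the 5 HFA mice.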

How the data were processed

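RNA-seq libraries of 10 mammary glands, 5 CFA and 5 HFA, were grouped by their labels. The deposited values are raw read counts per Ensembl gene, which the authors made with TopHat 2.0.14 and Bowtie 2.2.5 on GRCm38 and HTSeq 0.6.1 (Ensembl release 83), from 75 base paired reads of a TruSeq RNA library that does not mark strand. The files hold no normalization. Their 5 summary lines were left out. Reads with more than 1 alignment, 28.8% to 33.9% of the counted lines, are in no gene's count. Nothing in the labels names separate litters or cages, so p-values measure the spread between these 10 mice. No pair of libraries was a copy (highest r 0.983, lowest chi-square per gene 13.7).

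Symbols were matched for 46488 of 46983 genes, and 1 of 204 list genes had no match. A further list gene is not reported here. The genes were filtered with filterByExpr and scaled by TMM in edgeR 4.0.16 (R 4.3.3), and HFA was compared with CFA by the quasi-likelihood test with Benjamini-Hochberg adjustment over 15610 genes at 0.05. Standard errors were taken from the estimate and its F statistic, and the common biological coefficient of variation was 0.409. Log2 CPM used a prior count of 2. Slopes on *Adipoq*, *Ucp1* and the mean B and T cell level came from the same test with diet as a term. Lengths and exons are from GENCODE M21, and promoters from RefSeq (GRCm38.p6).

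The 3 genes and all gene lists were chosen with earlier results of these data known. Genes named are the 3, *Adipoq* and *Ucp1*, of the lists that the text describes by gene the 3 most abundant tested genes, genes at an unadjusted p below 0.05 in the PAQR, retinoid and CoA lists, and the 5 genes most like each of the 3 (average log2 CPM at least 1), over all libraries and with diet means subtracted.

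Other settings tried were scaling by RLE or upper quartile, all genes with a count, genes over 1 CPM in 5 or more libraries, the likelihood ratio test, DESeq2 1.42.0, voom of limma 3.58.1 (plain or with quality weights), terms for the second title digit, a replicate block or a covariate, and the omission of any 1 library. The low B and T cell libraries alone, the muscle and basal epithelial covariates, and the likeness without T2334 were added after the data had been seen. On simulated counts of 15610 genes, 160 of 200 genes changed 4-fold between the diets were recovered with 11 false calls, and 175 of 200 genes given a slope of 0.5 on *Ucp1* with 7. Each gene was simulated on its own, without the differences in cell makeup that genes of these libraries share. These rates need not hold for the real counts.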

Additional observations from a re-analysis of the deposited data

How the results depend on the processing

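The log2 fold changes of *Mmd2*, *Dhrs9* and *Slc25a42* kept their sign and moved by less than 1 SD between mice under all 16 settings and with each library left out. This is a description, since the genes were selected for that contrast in these libraries. The number of genes that differed between the diets, 0 by the quasi-likelihood test, was 60 by DESeq2, 33 by edgeR's likelihood ratio test and 1037 by voom with quality weights. It was 3 with the B and T cell level as a covariate, 469 in the libraries of low B and T cell level, and 0 to 6 with each library left out (6 without T2334). The number following *Adipoq*, 1226, was 0 with the second title digit, 0 in the libraries of low B and T cell level, and 0 to 2382 with each library left out (0 without T2234, T2314 or T2334 and 2382 without T1314). The number following *Ucp1*, 2, was 1 by limma voom, 0 with the digit, 4 in the libraries of low B and T cell level and 0 to 3 with each library left out. The number following the B and T cell level, 4460, was 447 without T2334 and 6274 without T1334, the ends of the range. The causes were not tested.

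None of the 9 slopes of the 3 genes passed an adjusted p of 0.05 under any setting, where the lowest was 0.103. Several changed sign around 0. On *Ucp1*, *Mmd2* had −0.047 by limma voom and −0.078 in the libraries of low B and T cell level, and *Dhrs9* had −0.013 and −0.022. With each library left out, the slope on *Ucp1* was −0.027 to 0.063 for *Mmd2* and −0.026 to 0.079 for *Dhrs9*, and that of *Slc25a42* was −0.039 to 0.71 on *Adipoq* and −0.060 to 0.033 on the B and T cell level.

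The last digits of the titles were shared by 4 pairs of CFA and HFA libraries. Their deviations from the diet means correlated at 0.298, −0.294, 0.111 and 0.410, and 2 of the 4 matched their own number best, so the numbers were not taken to pair mice. With this replicate block, 0 genes differed between the diets and 0 followed *Adipoq*, *Ucp1* or the B and T cell level. These fits held nearly as many terms as libraries, so that 0 genes passed says little. T1324 and T2214 have no partner and add nothing to the estimates with the block, and T2214 had the most *Mmd2*. The log2 fold changes were 2.29, 1.82 and 1.23, and the slopes that changed sign were those of *Mmd2* (−0.43) and *Dhrs9* (−0.17) on *Ucp1* and of *Dhrs9* on the B and T cell level (−0.26). That of *Slc25a42* was 0.42 (SE 0.14) on *Ucp1* and 1.31 (SE 0.67) on *Adipoq*, and that of *Mmd2* on the B and T cell level 0.53 (SE 0.11), without passing. Of the 5 genes most like each gene, 3 to 5 were among the 50 most alike by Spearman's rho, and 5 of 5 with a prior count of 0.5. Depth limits *Dhrs9* most, with 12 to 96 reads per library.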

Other observations

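Among the relatives of the 3 genes, a few went with *Adipoq* within diets where the 3 themselves did not pass, and they were singled out after their values were seen. They were 1 of 11 PAQR, 1 of 25 retinoid, 1 of 18 CoA and 0 of 13 carrier genes. Of all genes 1.89% rose and 5.96% fell with *Adipoq*, so nothing about these lists follows from the counts. *Paqr6*, a membrane progestin receptor of the family of *Mmd2*, rose by 2.05 log2 units per log2 unit of *Adipoq* (SE 0.50, adjusted p = 0.0374, quasi-likelihood test of edgeR). *Vnn3*, a pantetheinase gene of the CoA list, rose by 1.18 (SE 0.24, adjusted p = 0.0234), and *Rdh12*, a retinol dehydrogenase gene of the list of *Dhrs9*, had a slope of −3.65 (SE 0.85, adjusted p = 0.0339). By the same test *Rdh12* also rose with the B and T cell level within diets (slope 0.49, SE 0.060, adjusted p = 3.00e-04). It averaged 1.90 ± 1.18 CPM in CFA and 3.10 ± 5.49 CPM in HFA (± SD), values so uneven that few mice can carry its slopes. Of the 25 retinoid genes 2 rose and 3 fell with the B and T cell level, as did 17.9% and 10.6% of all genes. *Paqr6* fell with that level (slope −0.23, SE 0.066, adjusted p = 0.0281). All 14 tested B and T cell genes fell with *Adipoq* and 4 of 10 luminal epithelial genes rose with it. No gene passed with only the 7 libraries of low B and T cell level in the fit, in a fit that held the title digit, with the replicate block, or without T2234, T2314 or T2334. The fit with the block could show little, since it held nearly as many terms as libraries.

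The genes that followed *Ucp1* within diets were *Cidea*, a lipid droplet protein gene of brown fat (slope 0.59, SE 0.056, adjusted p = 0.0124), and *Slc27a2*, a fatty acid transport protein and acyl-CoA synthetase gene (slope 0.96, SE 0.086, adjusted p = 0.0124). No gene passed in a fit that held the title digit, with the replicate block, or without T1234, T1334 or T2224. As above, the block left few libraries by which to judge a slope.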
